A study of Mus musculus with 6 samples.

Results

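Eph receptors are the receptor tyrosine kinases that bind ephrins, and 10 genes of this system, 3 ligands (Efna1, Efnb1 and Efnb2) and 7 receptors (Epha2, Epha4, Epha5, Epha7, Ephb2, Ephb3 and Ephb4), were followed in mouse stem-like medulloblastoma cells with guides against the long noncoding RNA Miat and with a control guide. The genes were matched by symbol and were chosen with earlier results of these data known. They are 10 of the 24063 symbols in the count files, and 7 of the 14 receptor genes and 3 of the 8 ephrin genes listed for this family. The cells come from cerebellum, and every group carries the genotype Math1-Cre; SmoM2. Math1 is the gene of granule neuron progenitors whose promoter drives the Cre, and SmoM2 is an active form of Smoothened, the transducer of the Hedgehog signal. The groups are sgMiat-6 and sgMiat-96, labelled as Miat knockdown, and sgGal4-4, a control guide named for a yeast protein and labelled WT, with 2 libraries each. The series text places the guides in a CRISPR experiment. Ages, treatments, and whether the libraries of a guide came from 1 clone or from separate cultures are not given in the labels, so p-values measure only the spread between these libraries, which may be technical.

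Ephrins are membrane-bound, so ligand and receptor usually meet where 2 cells touch, and both sides can signal. Ephrins of the A class hang from a lipid anchor and mainly bind EphA receptors, whereas ephrins of the B class cross the membrane and mainly bind EphB receptors. EphA4 is an exception that binds both classes. In the developing nervous system the system is known for repelling axons and for keeping groups of cells apart.

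The libraries held between 18438909 and 19650274 counts in the rows kept. Miat had 0 counts in each of the 4 Miat-guide libraries and 140 and 139 in the sgGal4-4 libraries. The cell identity was checked on marker genes. Sox2, a neural stem cell transcription factor, averaged 229 ± 17.4 CPM in the sgMiat-6 libraries, 270 ± 22.6 CPM in the sgMiat-96 libraries and 218 ± 6.54 CPM in the sgGal4-4 libraries (SD, n = 2 each), where CPM is the count scaled to the library's depth by TMM, edgeR's normalization. Atoh1, the mouse Math1 gene itself, had 0 counts in all 6 libraries, and so did Fut4, another stem cell marker. The 6 granule progenitor markers summed to between 182 and 203 CPM in the sgMiat-6 libraries, between 186 and 201 CPM in the sgMiat-96 libraries and between 96.9 and 102 CPM in the sgGal4-4 libraries. The 5 astrocyte markers summed to between 658 and 748 CPM in the sgMiat-6 libraries, between 521 and 529 CPM in the sgMiat-96 libraries and between 1961 and 1968 CPM in the sgGal4-4 libraries. The 6 oligodendrocyte lineage markers, nearly all of it Olig1 and Olig2, summed to between 3078 and 3219 CPM, between 4719 and 4808 CPM, and between 1910 and 1964 CPM in the same order of groups. The 5 neuronal markers summed to between 364 and 497 CPM, between 291 and 296 CPM, and between 745 and 747 CPM in that order, and the 6 neural stem cell markers to between 4317 and 4836 CPM, between 4434 and 5063 CPM, and between 2818 and 2930 CPM. The 5 mural cell and fibroblast markers, mostly Col1a1, summed to between 0.408 and 0.991 CPM in the sgMiat-6 libraries, between 0.506 and 1.44 CPM in the sgMiat-96 libraries and between 9.07 and 10.8 CPM in the sgGal4-4 libraries. Some sums hid members that went opposite ways. Map2 made up nearly all of the neuronal sum and fell, whereas Tubb3 averaged 6.20 CPM in the sgMiat-6 libraries and 8.13 CPM in the sgMiat-96 libraries, against 0.179 CPM in the sgGal4-4 libraries, and rose. Of the astrocyte markers 4 fell and S100b rose, and of the stem cell markers Vim rose and Msi1 fell. Nes and Sox2 did not pass edgeR's test over both guides together. By the same test Nes was called higher with sgMiat-6 alone (0.40 on the log2 scale, adjusted p = 0.0441). Sox2 was called higher with sgMiat-96 alone (0.31, adjusted p = 0.0185). Miat-guide and control libraries lay apart in the sums of each of these lists, and their part in the results below was not tested.

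The widest changes were those of the ligand genes Efna1 and Efnb2 and the receptor genes Epha4 and Ephb2. Efna1, which encodes the A-class ligand ephrin-A1, was present with the control guide and at 0 counts with both Miat guides. Efnb2, which encodes the B-class ligand ephrin-B2, went the other way and was 17.7-fold higher over both guides. Among receptors, Epha4 was 13.8-fold and Ephb2 5.70-fold lower over both guides, while Ephb3 and Ephb4 were slightly higher and Epha2 did not pass the test. Epha5 and Epha7 were near 0 counts throughout. In bulk RNA, fewer cells that express a gene and less RNA per cell cannot be told apart.

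**Figure D1:**
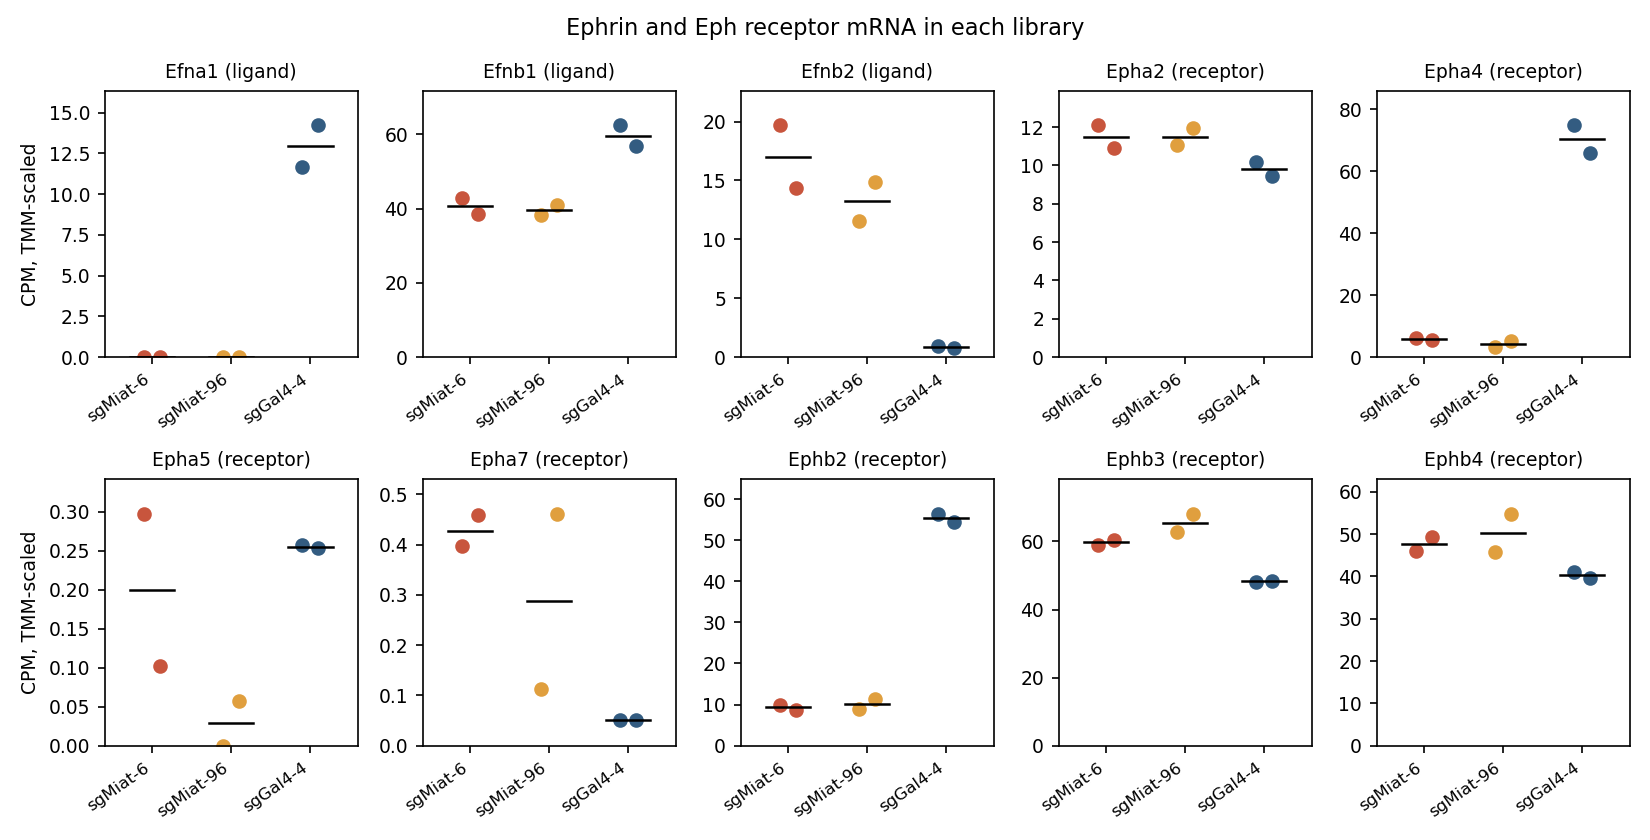
TMM-scaled CPM (vertical axis, linear, from 0) of the 3 ephrin and 7 Eph receptor genes in each library, by guide (horizontal axis); points are libraries and black lines are group means of 2 libraries. Efna1 is at 0 in all 4 Miat-guide libraries, Efnb2 is at or under 0.927 CPM in both sgGal4-4 libraries, and Epha4 and Ephb2 are several times lower with either Miat guide.

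The promoters of these 4 genes are shown because their transcripts moved furthest of the 10. Each run is the 250 bases before the transcription start, 5′ to 3′ on the gene's strand, from RefSeq on GRCm38.p6, and all 4 genes lie on the minus strand. Capitals mark matches on either strand to any of 5 motifs. The GC box was spelled GGGCGG, the CCAAT box by its name, the TATA box TATAAA, the E-box CACGTG, and the Gli motif GACCACCCA. For Efna1, the start is that of the transcript kept for counting. Its window lies inside the gene's full GENCODE span, which begins at 89281142 on the minus strand. For Ephb2, the start used lies 24 bases from the GENCODE start.
Efna1, chr3:89279646-89279895: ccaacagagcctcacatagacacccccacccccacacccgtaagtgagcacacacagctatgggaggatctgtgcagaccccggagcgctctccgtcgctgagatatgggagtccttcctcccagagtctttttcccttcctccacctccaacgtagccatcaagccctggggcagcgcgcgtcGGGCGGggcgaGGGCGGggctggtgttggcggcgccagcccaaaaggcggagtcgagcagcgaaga
Efnb2, chr8:8661243-8661492: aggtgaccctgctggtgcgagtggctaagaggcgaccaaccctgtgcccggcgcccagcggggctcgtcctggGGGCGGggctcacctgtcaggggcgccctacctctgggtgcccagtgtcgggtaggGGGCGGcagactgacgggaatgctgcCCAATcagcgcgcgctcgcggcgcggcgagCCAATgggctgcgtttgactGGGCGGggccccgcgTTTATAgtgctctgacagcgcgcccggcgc
Epha4, chr1:77515089-77515338: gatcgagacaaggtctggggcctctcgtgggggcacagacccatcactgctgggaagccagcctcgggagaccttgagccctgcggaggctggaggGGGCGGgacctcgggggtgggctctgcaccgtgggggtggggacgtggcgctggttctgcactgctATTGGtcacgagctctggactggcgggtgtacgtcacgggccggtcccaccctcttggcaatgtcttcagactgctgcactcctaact
Ephb2, chr4:136836013-136836262: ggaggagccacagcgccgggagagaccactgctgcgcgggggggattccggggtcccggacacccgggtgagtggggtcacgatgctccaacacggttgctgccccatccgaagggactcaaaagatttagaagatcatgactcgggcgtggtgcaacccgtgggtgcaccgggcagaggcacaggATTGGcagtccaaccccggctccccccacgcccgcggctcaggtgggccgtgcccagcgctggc
The Efna1 promoter held 2 GC boxes, and that of Efnb2 held 3 GC boxes, 2 CCAAT motifs and 1 TATA box. The Epha4 promoter held 1 GC box and 1 CCAAT motif, and that of Ephb2 held 1 CCAAT motif. No matches overlapped, and none of the 4 windows held the E-box or the Gli letters. Of 32851 mouse promoters of the same length, 32.7% held the GC box, 33.8% CCAAT, 12.4% the TATA letters, 6.02% the E-box and 0.225% the Gli letters. GC content was 64.4% for Efna1, 72% for Efnb2, 66% for Epha4 and 68.4% for Ephb2, against a median of 52.4% over all promoters. These matches describe the windows only.

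Efna1 lies on chromosome 3 from 89271733 to 89281142 (GRCm38, minus strand), and its counted transcript has 5 exons. It had 0 counts in each library of sgMiat-6 and sgMiat-96, against 226 and 281 counts (11.6 and 14.2 CPM) in the sgGal4-4 libraries. Every control library was above every Miat library. With a Miat group set to a floor of 3 counts in all, the fall of Efna1 was at least 172-fold for sgMiat-6, and for sgMiat-96 at least 152-fold (edgeR quasi-likelihood test, adjusted p = 2.16e-08 and adjusted p = 2.29e-08). The other transcript row of the gene, with 225 and 279 control counts, was also at 0 in the 4 Miat libraries. Only 2 genes of 13219 had a lower fitted fold change for both guides together. With 0 counts in the Miat libraries, the size of that fitted value is not a measured one. Efna1 passed the filter on low counts only through the control libraries, so its rank and p-values are a description only.

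Efnb2 lies on chromosome 8 from 8617434 to 8661242 (minus strand, 5 exons). It reached 19.7 and 14.3 CPM in the sgMiat-6 libraries, 11.6 and 14.9 CPM in the sgMiat-96 libraries, and 0.927 and 0.760 CPM in the sgGal4-4 libraries. The lowest Miat library was above the highest control library. On the log2 scale the rise was 4.32 ± 0.27 with sgMiat-6 (SE, adjusted p = 1.04e-08) and 3.96 ± 0.27 with sgMiat-96 (SE, adjusted p = 2.54e-08). Ephrin-B2 is also known as a marker of arterial endothelium, and the 5 endothelial markers summed to between 2.30 and 3.77 CPM in the sgMiat-6 libraries, between 2.14 and 2.36 CPM in the sgMiat-96 libraries and between 5.56 and 6.94 CPM in the sgGal4-4 libraries. Most of this was Tek, with 114 counts for sgMiat-6, 72 for sgMiat-96 and 182 for sgGal4-4, while Cldn5 had 0 counts in all 6 libraries, Kdr had 1 count in all and Cdh5 had 5 counts with sgMiat-6, 0 with sgMiat-96 and 45 with sgGal4-4.

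Efnb1, on the X chromosome from 99136130 to 99148991, encodes the B-class ligand ephrin-B1. It had 42.8 and 38.5 CPM in the sgMiat-6 libraries, 38.4 and 40.9 CPM in the sgMiat-96 libraries, and 62.4 and 56.9 CPM in the sgGal4-4 libraries. The Miat groups overlapped each other, and all 4 Miat libraries lay below both controls. It fell by 0.55 ± 0.12 on the log2 scale with sgMiat-6 (SE, adjusted p = 0.00148) and by 0.59 ± 0.12 with sgMiat-96 (SE, adjusted p = 0.000597).

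Epha4 encodes a receptor that binds both ephrin classes and is known for steering axons. The gene spans chromosome 1 from 77367185 to 77515088 (minus strand, 18 exons). It had 6.30 and 5.61 CPM in the sgMiat-6 libraries, 3.37 and 5.37 CPM in the sgMiat-96 libraries, and 74.8 and 65.8 CPM in the sgGal4-4 libraries. All 4 Miat libraries lay far below both controls, and both sgMiat-96 libraries lay below both sgMiat-6 libraries. The gene fell by 3.56 ± 0.18 on the log2 scale with sgMiat-6 (SE, adjusted p = 1.23e-09) and by 4.01 ± 0.19 with sgMiat-96 (SE, adjusted p = 5.79e-10).

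Ephb2 encodes a receptor for B-class ephrins that is also found at synapses. It spans chromosome 4 from 136647539 to 136835988 (minus strand, 16 exons). It had 10.01 and 8.62 CPM in the sgMiat-6 libraries, 8.82 and 11.5 CPM in the sgMiat-96 libraries, and 56.4 and 54.5 CPM in the sgGal4-4 libraries. The Miat groups overlapped each other and both were below the control. On the log2 scale it fell by 2.57 ± 0.16 with sgMiat-6 (SE, adjusted p = 7.77e-09) and fell by 2.45 ± 0.16 with sgMiat-96 (SE, adjusted p = 1.17e-08).

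Ephb3, on chromosome 16 from 21204755 to 21223305, encodes another B-class receptor. It had 58.9 and 60.5 CPM in the sgMiat-6 libraries, 62.8 and 68.1 CPM in the sgMiat-96 libraries, and 48.2 and 48.4 CPM in the sgGal4-4 libraries. Miat libraries were above both controls, by 0.37 ± 0.10 on the log2 scale over both guides (SE, adjusted p = 0.00434). With 1 control library left, the difference was 0.37 without sgGal4-4 replicate 1 and 0.38 without sgGal4-4 replicate 2, and the call was lost (adjusted p = 0.0715 and adjusted p = 0.0682). In such fits the lone library is assumed to vary like those of the other groups. By guide, Ephb3 rose by 0.31 ± 0.11 with sgMiat-6 (SE, adjusted p = 0.0348) and by 0.44 ± 0.11 with sgMiat-96 (SE, adjusted p = 0.00337). The sgMiat-6 call was lost in edgeR with a replicate block (adjusted p = 0.0717) and with scaling by total counts alone (adjusted p = 0.0859).

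Ephb4, the gene of the receptor that marks veins and pairs with ephrin-B2 there, lies on chromosome 5 from 137350109 to 137378669. It had 45.9 and 49.4 CPM in the sgMiat-6 libraries, 45.8 and 54.8 CPM in the sgMiat-96 libraries, and 41.2 and 39.7 CPM in the sgGal4-4 libraries. The difference was 0.28 ± 0.11 on the log2 scale over both guides (SE, adjusted p = 0.0379). It was not called with DESeq2 (adjusted p = 0.0616), with scaling by total counts alone (0.15 on the log2 scale, adjusted p = 0.26), or in 4 of the 6 fits that left out a library, where the highest adjusted p was 0.246, without sgGal4-4 replicate 2. By guide in edgeR, the difference was 0.24 ± 0.13 with sgMiat-6, which was not called (SE, adjusted p = 0.125). With sgMiat-96 it was 0.32 ± 0.13 and was called (SE, adjusted p = 0.0375). The last 33 bases of Ephb4 overlap Zan on the other strand, which had between 2 and 10 counts in a library.

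Epha2, on chromosome 4 from 141301240 to 141329384, encodes the main receptor of ephrin-A1. It had 12.1 and 10.9 CPM in the sgMiat-6 libraries, 11.1 and 11.9 CPM in the sgMiat-96 libraries, and 10.2 and 9.42 CPM in the sgGal4-4 libraries. The difference of 0.23 ± 0.14 on the log2 scale over both guides did not pass the test (SE, adjusted p = 0.174), although the Miat libraries were all above the controls. With the trend over transcript length removed it was 0.39 and passed (adjusted p = 0.0179).

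Epha5 and Epha7, receptors of the A class that are expressed in the developing brain, did not pass the filter on low counts and were not among the 8 genes tested. Epha5 had 6 and 2 counts with sgMiat-6, 0 and 1 with sgMiat-96, and 5 in each library of sgGal4-4. Epha7 had 8 and 9 counts with sgMiat-6, 2 and 8 with sgMiat-96, and 1 in each library of sgGal4-4. The 9 Miat and 10 control counts of Epha5 give a ratio per depth of 0.471, with a 95% Clopper-Pearson interval of 0.169 to 1.29. By guide it was 0.788 (0.270 to 2.22) for sgMiat-6 and 0.112 (0.00257 to 0.784) for sgMiat-96. The 27 Miat and 2 control counts of Epha7 give a ratio per depth of 7.06, with a 95% Clopper-Pearson interval of 1.77 to 61.3. By guide it was 8.37 (1.99 to 74.7) for sgMiat-6 and 5.57 (1.19 to 52.3) for sgMiat-96. All these intervals cover counting error only. Without the filter, edgeR called Epha7 higher over both guides (2.63 ± 1.11 on the log2 scale, SE, adjusted p = 0.0425) and with sgMiat-6 (adjusted p = 0.0405), not with sgMiat-96 (adjusted p = 0.119), and it did not call Epha5 (adjusted p = 0.231 over both guides). A floor of 3 counts corresponds to between 0.149 and 0.173 CPM in a library.

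**Figure D2:**
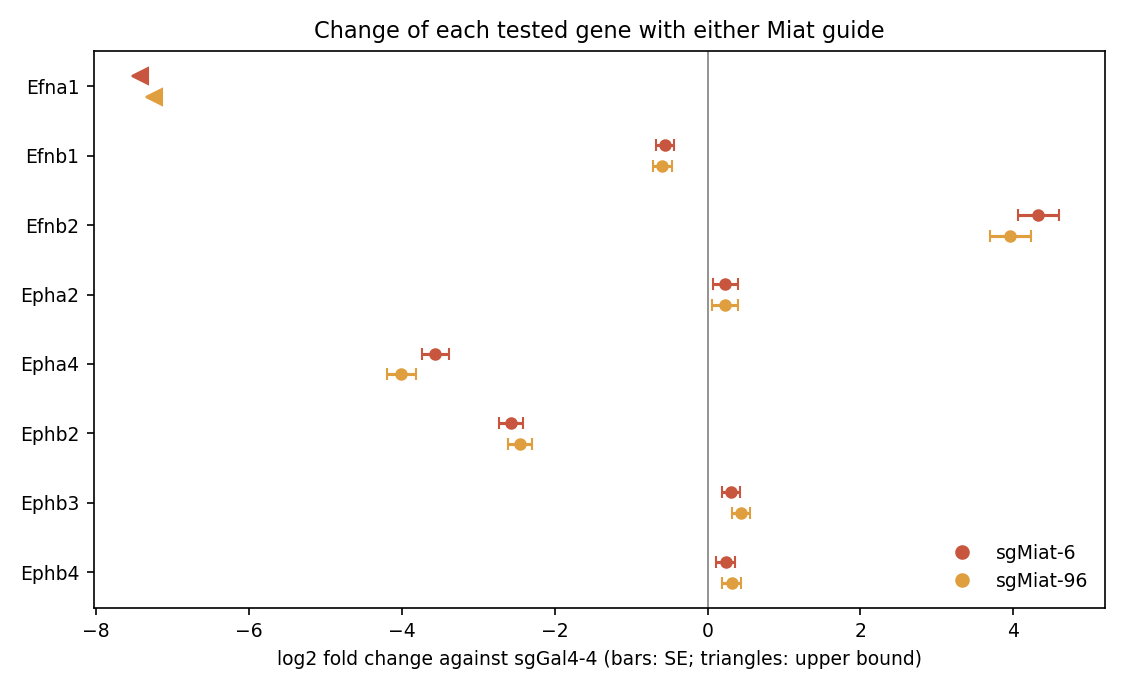
Log2 fold change against sgGal4-4 (horizontal axis) of the 8 tested genes (vertical axis) for each Miat guide. Points are fitted values with SE from 2 libraries a group. Triangles are for Efna1, which had 0 counts with both guides, and are drawn with 3 counts put in for the Miat group. Efnb2 lies near 4 to the right, Epha4 and Ephb2 to the left, and the 2 guides lie side by side for every gene shown.

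Of the 8 genes tested, 3 were higher and 4 lower with both Miat guides together. Over all 13219 genes tested, 66.6% were called in that comparison, 33.2% higher and 33.4% lower, so a call by itself was common here. Sizes were less common: 5% of genes lay below -2.09 and 5% above 1.77 on the log2 scale, and Efna1, Epha4 and Ephb2 lay below the lower value and Efnb2 above the upper. These genes were chosen with earlier results of these data known, so their place among all genes is a description only. The median of the 8 genes was -0.17, against 0.00 for all genes tested. With sgMiat-6 alone 2 of 8 were higher and 4 lower (53% of all genes called, 27% higher and 26% lower), and with sgMiat-96 alone 3 were higher and 4 lower (68.3% of all genes called, 34.1% higher and 34.3% lower). These comparisons share the sgGal4-4 libraries.

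Between the Miat guides, Efna1 had 0 counts on both sides and could not differ. Of the other 7 genes, 0 were called by edgeR at an adjusted p of 0.05, where 37.2% of all genes were, and DESeq2 also called 0. With scaling by total counts alone 1 gene was called lower, and with the length trend removed 1 was called higher. In the main fit only Epha4 had an unadjusted p under 0.05. Its difference was -0.45 ± 0.21 on the log2 scale for sgMiat-96 against sgMiat-6 (SE, adjusted p = 0.106). Without sgMiat-96 replicate 2, which leaves 1 library of that guide and takes the spread from the other groups, it was -0.82 and passed (adjusted p = 0.0214). Efnb2 differed by -0.36 ± 0.19 (SE, adjusted p = 0.155), and by -0.59 without sgMiat-6 replicate 2, again with 1 library of a guide left (adjusted p = 0.0294). The other 5 genes with counts in both groups differed by 0.13 or less in size, with SE of 0.11 to 0.17.

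Levels of different genes were compared per length, as CPM per kilobase of transcript. With sgMiat-6 the order was led by Ephb3 (14.4 ± 0.27), Efnb1 (12.5 ± 0.92) and Ephb4 (10.99 ± 0.57), followed by Efnb2 (3.94 ± 0.87), Epha2 (2.93 ± 0.21), Ephb2 (1.92 ± 0.20) and Epha4 (0.941 ± 0.076). With sgMiat-96 the leading genes were Ephb3 (15.8 ± 0.91), Efnb1 (12.2 ± 0.54) and Ephb4 (11.6 ± 1.47), then Efnb2 (3.06 ± 0.54), Epha2 (2.93 ± 0.16), Ephb2 (2.09 ± 0.39) and Epha4 (0.690 ± 0.22). With sgGal4-4 it was Efnb1 (18.3 ± 1.202), then Ephb3 (11.6 ± 0.037), Ephb2 (11.4 ± 0.28) and Epha4 (11.1 ± 1.00), then Ephb4 (9.32 ± 0.24), Efna1 (8.72 ± 1.24), Epha2 (2.49 ± 0.14) and Efnb2 (0.195 ± 0.027), all SD over 2 libraries. Neighbours whose libraries overlapped were Efnb1 with Ephb4 and Efnb2 with Epha2 under sgMiat-96, and Epha4, Ephb2 and Ephb3 with each other, and Ephb4 with Efna1, under sgGal4-4. The remaining neighbours had no overlapping libraries, which with 2 libraries a group is a description only. Epha5 and Epha7 were under 0.069 CPM per kb in every library.

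Ligands and receptors were then summed per length. The 3 ligands summed to 17.7 and 15.1 CPM per kb with sgMiat-6, 14.5 and 16.0 with sgMiat-96, and 27.2 in both libraries of sgGal4-4. The 7 receptors summed to 31.0 and 31.5 CPM per kb with sgMiat-6, 30.9 and 35.4 with sgMiat-96, and 47.2 and 44.9 with sgGal4-4. Both sums were lower in every Miat library. The ratio of receptors to ligands was 1.92 ± 0.23 with sgMiat-6, 2.18 ± 0.056 with sgMiat-96 and 1.69 ± 0.061 with sgGal4-4 (SD, n = 2 each). All 4 Miat libraries lay above both controls, the lowest at 1.76 against 1.73 in the higher control. As a score over chosen genes, the ratio was given no test. Neither sum was corrected for the trend over transcript length.

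The make-up of both sums also differed between the groups. Of the ligand sum, Efnb2 made up 23.8% ± 2.72 with sgMiat-6, 20.1% ± 2.14 with sgMiat-96 and 0.717% ± 0.10 with sgGal4-4. Efna1 made up 0% with both Miat guides and 32.0% ± 4.53 with sgGal4-4, and Efnb1 was the largest part in all 3 groups. Among receptors, the A-class genes made up 12.7% ± 1.10 of the sum with sgMiat-6, 11.04% ± 0.21 with sgMiat-96 and 29.6% ± 1.44 with sgGal4-4. Ephb3 and Ephb4 were the largest parts with the Miat guides, whereas Epha4, Ephb2, Ephb3 and Ephb4 had between 20.1% and 26.0% each in the sgGal4-4 libraries.

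The rest of the family was then examined, 7 receptor and 5 ligand genes, of which 8 passed the filter. Of these 8, 5 rose and 0 fell with both guides by edgeR, against 33.2% higher and 33.4% lower of all genes, and their median was 0.67 on the log2 scale against 0.00. Ephb6, the gene of a receptor without kinase activity, had 16.3 and 17.6 CPM in the sgMiat-6 libraries, 21.7 and 23.5 CPM in the sgMiat-96 libraries, and 2.21 and 2.28 CPM in the sgGal4-4 libraries, a rise of 3.12 ± 0.17 on the log2 scale (SE, adjusted p = 1.6e-09). Ephb1, a further B-class receptor gene, had 84.4 and 76.6 CPM in the sgMiat-6 libraries, 51.0 and 61.0 CPM in the sgMiat-96 libraries, and 31.2 and 29.1 CPM in the sgGal4-4 libraries, a rise of 1.16 ± 0.12 (SE, adjusted p = 8.93e-07). The A-class ligand genes Efna4, Efna2 and Efna5 rose by 0.98 ± 0.15, 0.70 ± 0.14 and 0.64 ± 0.15 (SE). Efna3, Efnb3 and Epha1 did not pass, with -0.10 ± 0.15, 0.29 ± 0.35 and -0.19 ± 0.44 (SE). With the trend over transcript length removed, Efna3 was -0.52 and was called lower (adjusted p = 0.00436). Epha3, Epha6, Epha8 and Epha10 had at most 7 counts in any library and were not tested.

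With these genes added, a sum chosen after their values were seen, the receptor totals of the groups came close together. No total was corrected for the trend over transcript length. With that trend removed, Ephb1 moved from 1.16 to 1.42 and Efna4 from 0.98 to 0.67 on the log2 scale over both guides. Totals with the trend removed were not computed. All 14 receptor genes summed to 53.7 and 53.1 CPM per kb with sgMiat-6, 48.0 and 55.0 with sgMiat-96, and 55.0 and 52.0 with sgGal4-4, and these ranges overlap. All 8 ligand genes summed to 41.1 and 42.0 CPM per kb with sgMiat-6, 46.9 and 48.8 with sgMiat-96, and 47.6 and 47.0 with sgGal4-4. The sgMiat-6 libraries were the lowest and the other groups overlapped. B-class genes made up 91.9% ± 0.13 of the receptor total with sgMiat-6, 92.3% ± 0.050 with sgMiat-96 and 73.8% ± 1.499 with sgGal4-4 (SD, n = 2 each). For ligands the B-class share was 41.1% ± 4.24 with sgMiat-6, 32.8% ± 1.04 with sgMiat-96 and 40.04% ± 2.21 with sgGal4-4.

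**Figure D3:**
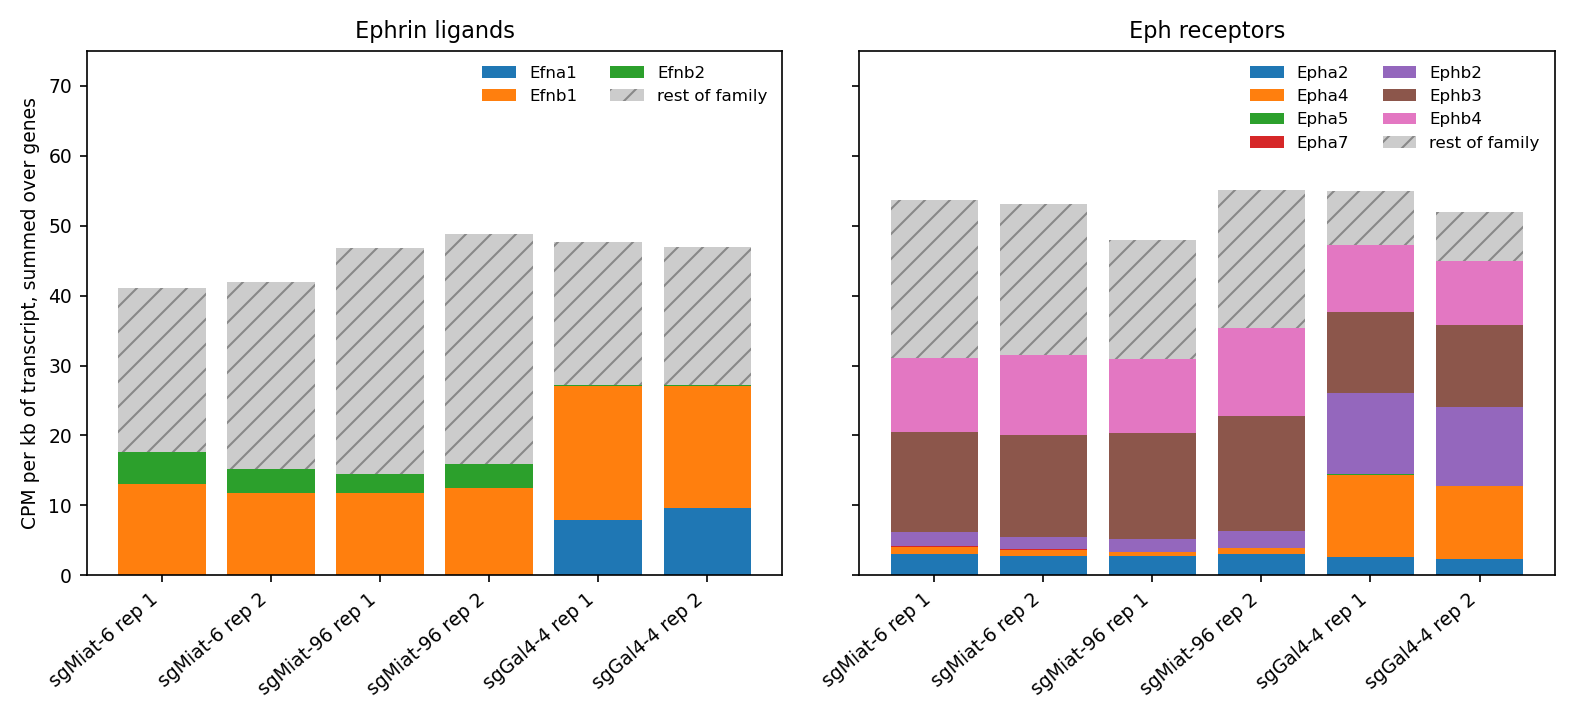
CPM per kilobase of transcript (vertical axis, from 0) summed over ephrin genes (left) and Eph receptor genes (right) in each library (horizontal axis); coloured parts are the 10 genes followed and hatched parts the rest of the family. The coloured receptor part is 30.9 to 35.4 in the Miat libraries and 44.9 to 47.2 in the controls, while the full bars lie between 48.0 and 55.0 in all 6 libraries.

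Genes that act with Eph receptors were counted from 3 lists, against the 33.2% higher and 33.4% lower of all genes. Of 19 exchange factors, GTPases and their effectors, 16 were tested. Of these, 10 fell (62.5%) and 1 rose (6.25%) over both guides together (median -0.39 on the log2 scale, against 0.00 for all genes). With sgMiat-6 alone 7 fell and 1 rose (median -0.13), where 26% of all genes were lower and 27% higher. With sgMiat-96 alone 10 fell and 1 rose (median -0.55), where 34.3% were lower and 34.1% higher. Over both guides together with the length trend removed, 10 fell and 4 rose (median -0.21). Rock2 and Rock1, the kinases that act below RhoA, fell by 1.57 ± 0.11 and 1.06 ± 0.12, Pak1, a kinase below Rac and Cdc42, by 3.18 ± 0.30, and Chn2, which inactivates Rac, by 0.97 ± 0.10 (SE, adjusted p = 1.78e-08 to adjusted p = 4.06e-06). With the length trend removed the values of Rock2 and Rock1 were -0.95 and -0.61, and both were still called. Pak1 averaged 0.504 ± 0.15 CPM in the sgMiat-6 libraries, 0.511 ± 0.15 with sgMiat-96 and 4.65 ± 0.49 with sgGal4-4 (SD, n = 2 each). The GTPase genes themselves did not fall over both guides together. Rhoa and Rac1 were not called by edgeR (adjusted p = 0.952 and adjusted p = 0.703). Cdc42 was the gene that rose there (0.34 ± 0.093, SE, adjusted p = 0.00482). Of 18 kinases, adaptors and phosphatases, 17 were tested, and 6 fell (35.3%) and 5 rose (29.4%), shares near those of all genes (median 0.07). Of the 4 Src-family kinase genes in the list, Src and Lyn rose by 1.79 ± 0.13 and 1.69 ± 0.11, and Yes1 and Fyn fell by 1.17 ± 0.12 and 0.53 ± 0.093 (SE). Ptpn13, a phosphatase gene, and Anks1, the gene of an adaptor that binds EphA receptors, fell by 1.47 ± 0.12 and 1.28 ± 0.11 (SE); with the length trend removed the values were -0.82 and -0.73, both called. Of 10 proteases and ephrin-B scaffolds, 9 were tested, and 2 fell (22.2%) and 3 rose (33.3%), the second near the share of all genes (median 0.02).

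In the last list Mmp14, a membrane-bound protease gene, had 254 counts in the Miat libraries, against 0 in the controls, and was at least 9.52-fold higher with sgMiat-6 and at least 83.6-fold higher with sgMiat-96. It passed the filter only through the Miat libraries. It had 15 and 14 counts with sgMiat-6 and 104 and 121 with sgMiat-96. The PDZ scaffold gene Grip1 rose by 0.57 ± 0.11, and Pick1 and Rgs3, whose proteins bind ephrin-B tails or Eph receptors, fell by 0.88 ± 0.14 and 0.47 ± 0.15 on the log2 scale (SE). The Rgs3 call was lost in 4 alternatives, with adjusted p up to 0.109, without sgGal4-4 replicate 2.

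**Figure D4:**
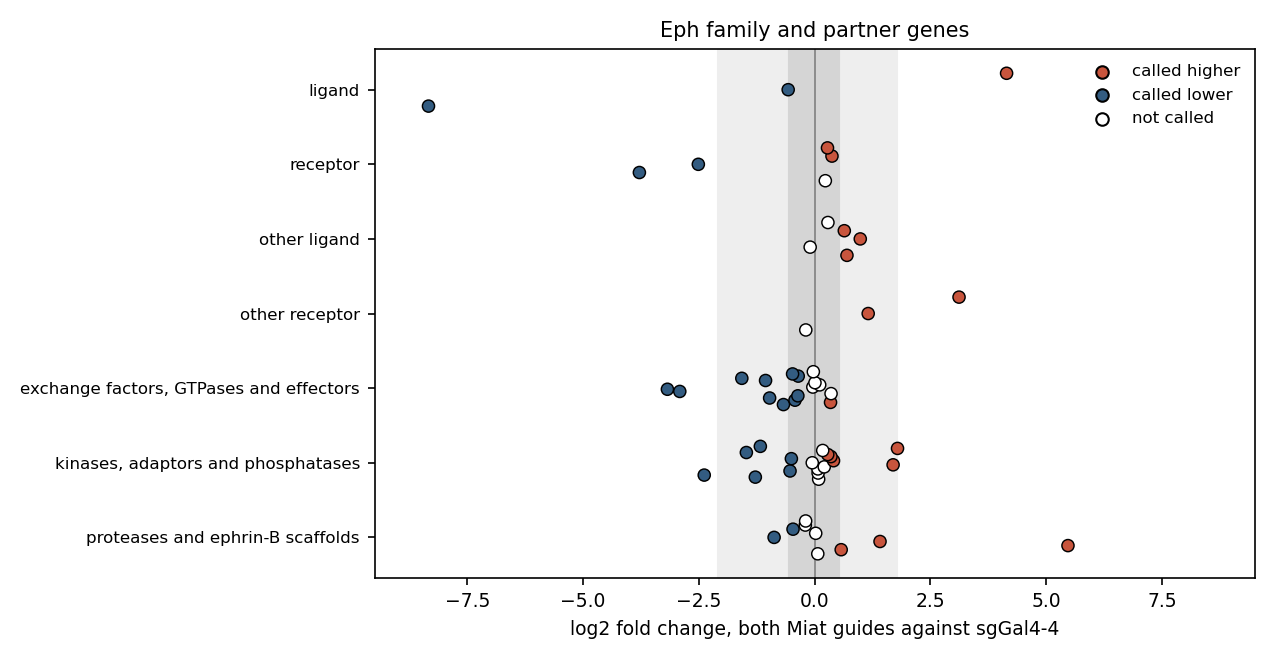
Log2 fold change of both Miat guides against sgGal4-4 (horizontal axis) for each tested gene of 7 lists (rows), coloured by call in edgeR; grey bands span the 25th to 75th and the 5th to 95th percentiles of all genes tested. Efna1 and Mmp14 are drawn over both guides pooled, with 3 counts put in for the side at 0 counts. The called genes of the rest of the ephrin and Eph family all lie to the right of 0.

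The genes most alike in pattern were sought for the genes at either end, among 10726 candidates whose mean level reached 2 CPM, by the root mean square difference of log2(CPM + 0.5) over the 6 libraries. Nearest to Efna1 were the homeobox gene Otx2 (0.038), the collagen gene Col22a1 (0.145) and Lrrc7 (0.192), all with at most 1 count in a Miat library. Nearest to Efnb2 were Unc5c, a netrin receptor gene (0.266), Dmrta2, a transcription factor gene (0.289), and Gsap (0.337). Unc5c had 22.7 and 16.5 CPM in the sgMiat-6 libraries, 15.6 in both libraries of sgMiat-96, and 0.824 and 0.456 CPM in the sgGal4-4 libraries.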

How the data were processed

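Per the labels' protocols, column-purified total RNA (1 µg) entered an mRNA library kit; whether strand was kept was not stated there. Per the submitters' processing notes, the aligner was STAR and the build GRCm38 (mm10); no counter or annotation release was named. The deposited files give, per the file headers, 33984 RefSeq transcripts with the count beside the FPKM. The authors' FPKM values were used only to recover transcript lengths and zeros. One file, sgMiat-96 replicate 2, holds no 0: its 11223 transcripts at FPKM 0 carry 1 count each, which was replaced by 0. For each of 24063 symbols the row with the highest total count was kept. The 10 genes have 1 to 3 rows each, and near-identical rows share reads.

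The counts were tested with edgeR 4.0.16 (R 4.3.3): filterByExpr by group, TMM, and quasi-likelihood tests in a model of 3 groups over 6 libraries, with 3 residual degrees of freedom and Benjamini-Hochberg adjustment over 13219 genes. Calls needed an adjusted p below 0.05. SE is the absolute log2 fold change over the square root of F. Folds against groups without counts are bounds, with 3 counts put in for the group. Floors and intervals cover counting error only. Replicates differed by more than sampling noise (chi-square per gene 4.31 to 19.4, where 1 is noise). Alternatives were another scaling, DESeq2 1.42.0, no filter, the counts as deposited, another transcript row, a loess correction for transcript length (span 0.3), a replicate block and each library left out. Gene positions come from GENCODE M21 on GRCm38, and promoters from RefSeq.

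The 10 genes and all lists were chosen with earlier results of these data known. Named are the 10 genes, every tested gene of the rest of the family, up to 4 called genes with the smallest adjusted p of each of 3 partner lists, and the 3 genes most alike to the genes with the highest and lowest fold change. Marker genes in the text, Yes1, Fyn, Rhoa, Rac1, Cdc42 and genes at low counts were named after their values were seen.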

Additional observations from a re-analysis of the deposited data

Results flagged for a closer look

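The effects of the 2 Miat guides differed from each other, by edgeR's test of sgMiat-96 against sgMiat-6, for 7 of the 20 tested genes named from the rest of the family and the partner lists by the naming rule. That is 35%, near the 37.2% of all genes called between the guides. In the rest of the family, Efna4 was 0.82 ± 0.16 higher on the log2 scale with sgMiat-96 (SE, adjusted p = 0.00224) and Ephb6 was 0.42 ± 0.15 higher (SE, adjusted p = 0.0393), while for Ephb1 the difference was -0.52 ± 0.13 (SE, adjusted p = 0.00625). Both guides were above sgGal4-4 for these 3 genes. Among the partners, Rock2, Rock1 and Ptpn13 were lower with sgMiat-96, with differences of -0.91 ± 0.13, -1.03 ± 0.15 and -0.66 ± 0.15 (SE, adjusted p = 0.000583, adjusted p = 0.000612 and adjusted p = 0.00453). Mmp14 was 3.13 ± 0.33 higher (SE, adjusted p = 0.000135), from 104 and 121 counts with sgMiat-96 against 15 and 14 with sgMiat-6.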

How the results depend on the processing

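Efna1, Efnb1, Efnb2, Epha4 and Ephb2 kept their direction and their call against sgGal4-4 in all 14 alternatives, with log2 fold changes over both guides of -0.70 to -0.50 for Efnb1, 4.01 to 4.35 for Efnb2, -3.97 to -3.31 for Epha4 and -2.64 to -2.22 for Ephb2. Scaled by total counts alone, the median of all genes moved to -0.13. The number of the 10 genes called over both guides was 5 to 8, and lay between 5 and 7 with a library left out. With the length trend removed, 16 partners were higher and 18 lower, against 9 and 18. Between the Miat guides it was 1 with total counts alone and 1 with the length trend removed, and 0 to 1 with a library left out. With the replicate block 8389 of all genes and 6 of the 10 were called, and Ephb4 was no longer called (adjusted p = 0.0633). Same-numbered libraries did not deviate together (correlations of replicate differences of -0.21 to 0.01), so the numbers were not taken to pair the libraries. With all family genes, an alternative chosen after seeing the data, the ratio of receptors to ligands was not corrected for the length trend. It was 1.28 with sgMiat-6, 1.08 with sgMiat-96 and 1.13 with sgGal4-4. The remaining reversals were of differences that passed the test in neither fit. With a library left out, Epha1 against sgGal4-4 ranged from -0.58 to 0.34, and between the guides Epha2 ranged from -0.0884 to 0.0721, Ephb2 from -0.081 to 0.30, Ephb4 from -0.0587 to 0.20 and Efnb1 from -0.13 to 0.0369. Between the guides Epha2 was 0.0014 with the replicate block, 0.0061 with DESeq2 size factors, 0.0001 with the counts as deposited, 0.0006 with the other transcript row, 0.0002 with DESeq2 and 0.17 with the length trend removed. With total counts alone, Ephb2 was -0.0265, Ephb3 -0.0164 and Ephb4 -0.0696, and with the length trend removed Efnb1 was 0.0398. The cause of these shifts was not tested. With 2 libraries a group, genes under about 0.529 CPM, Epha5 and Epha7 among them, did not pass the filter; without it Epha7 was called higher (adjusted p = 0.0425).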

Other observations

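Efna1 has ephrin neighbours on chromosome 3 (GRCm38). The gap to Efna3 is 32.8 kb and the gap to Efna4 is 52.2 kb. Efna3 had 8.38 and 9.44 CPM in the sgMiat-6 libraries, 10.1 and 10.2 CPM in the sgMiat-96 libraries, and 9.99 and 10.3 CPM in the sgGal4-4 libraries. Efna4 had 10.7 and 13.6 CPM in the sgMiat-6 libraries, 21.5 and 21.4 CPM in the sgMiat-96 libraries, and 8.34 and 7.95 CPM in the sgGal4-4 libraries. So of these 3 neighbouring A-class ligand genes, Efna1 was at 0 counts in the Miat libraries, Efna3 did not pass the test (it was called lower, at -0.52 on the log2 scale, with the trend over transcript length removed) and Efna4 rose. Per length, Efna3 was 8.30 ± 0.20 CPM per kb and Efna1 8.72 ± 1.24 CPM per kb with sgGal4-4 (SD, n = 2 each).

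Summed per length over all 8 ephrin genes, the A-class share was 58.9% ± 4.24 with sgMiat-6 and 67.3% ± 1.04 with sgMiat-96, against 59.96% ± 2.21 with sgGal4-4 (SD, n = 2 each). In the Miat groups it came from Efna2, Efna3, Efna4 and Efna5, since Efna1 was at 0. The A-class share of all Eph receptors was 8.07% ± 0.14 with sgMiat-6, 7.75% ± 0.050 with sgMiat-96 and 26.2% ± 1.499 with sgGal4-4.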
